A study of Rattus norvegicus with 6 samples.

Results

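The integrated stress response and the aminoacyl-tRNA synthetases were examined as a set of 40 genes in ventricular myocytes of newborn rats. The genes were chosen by name from the known targets and regulators of the transcription factor ATF4 together with 12 cytosolic synthetases. Earlier results of these data were known when they were chosen. A probe was matched to 38 of the 40 genes through its RefSeq accession, none being matched to Slc7a1 or Gars1, against 11580 named genes tested in all. All 38 were well above background on all 6 arrays. The cells were primary ventricular myocytes of Sprague-Dawley rats 1 to 2 days old, labelled male, and both groups were cultured for 36 h in medium with bromodeoxyuridine after preplating to reduce fibroblasts. One group then received 50 nmol/L of an siRNA against uc.323 (si-uc.323) and the other 50 nmol/L of a scrambled siRNA (si-scramble), for 3 h in serum-free medium. A further 21 h without serum followed, and RNA was taken 24 h after transfection. Each group had 3 samples, stated to be independent experiments, with 1 array each. uc.323 is a transcribed ultraconserved region, a non-coding RNA from a stretch of genome shared without change by several mammals, and the comparison was made to find what lies downstream of it in cardiomyocyte hypertrophy. The siRNA against it is shown because it sets the groups apart, with its overhang of deoxythymidines left out:
si-uc.323: gguaaguaauuucagcaau
The level of uc.323 itself was not analysed here.

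The integrated stress response starts when kinases such as GCN2, which senses uncharged tRNA, or PERK, which senses misfolded protein in the endoplasmic reticulum, phosphorylate the translation factor eIF2. Bulk translation then slows while the mRNA of ATF4 is translated more, so that ATF4 activity is set largely by translation and not by its mRNA level. ATF4 and its partners induce genes for amino acid synthesis and import, for the synthetases that charge tRNAs, and for feedback on the pathway. In heart muscle the response is known from mitochondrial disease, in which secreted factors such as FGF21 and GDF15 serve as markers.

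With si-uc.323 the set did not move as a block. Fgf21, a metabolic hormone, fell, and Cars1, the cysteinyl-tRNA synthetase, rose, and none of the other 36 genes passed an adjusted p of 0.05 (limma with Benjamini-Hochberg adjustment over all features). The 2 calls are 5.26% of the 38 genes, against 6.14% of all genes tested, so the share was near the background. The 3 values of one group lay clear of those of the other for 18 of the 38 genes (47.4%), 14 with the si-uc.323 values above and 4 with them below. Over all genes 39.1% were separated in this way, 20.1% upward and 19% downward. At an unadjusted p under 0.05 stood 16 of the 38 genes, 13 higher and 3 lower, where 30.1% of all genes did (16.7% higher and 13.3% lower). The median log2 fold change (si-uc.323 minus si-scramble) was 0.14 for the 38 genes and 0.02 for all genes. Within the set, the synthetases and the amino acid transporters had mostly positive differences, while Fgf21, Trib3 and Ddit3 had the most negative ones.

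**Figure D1:**
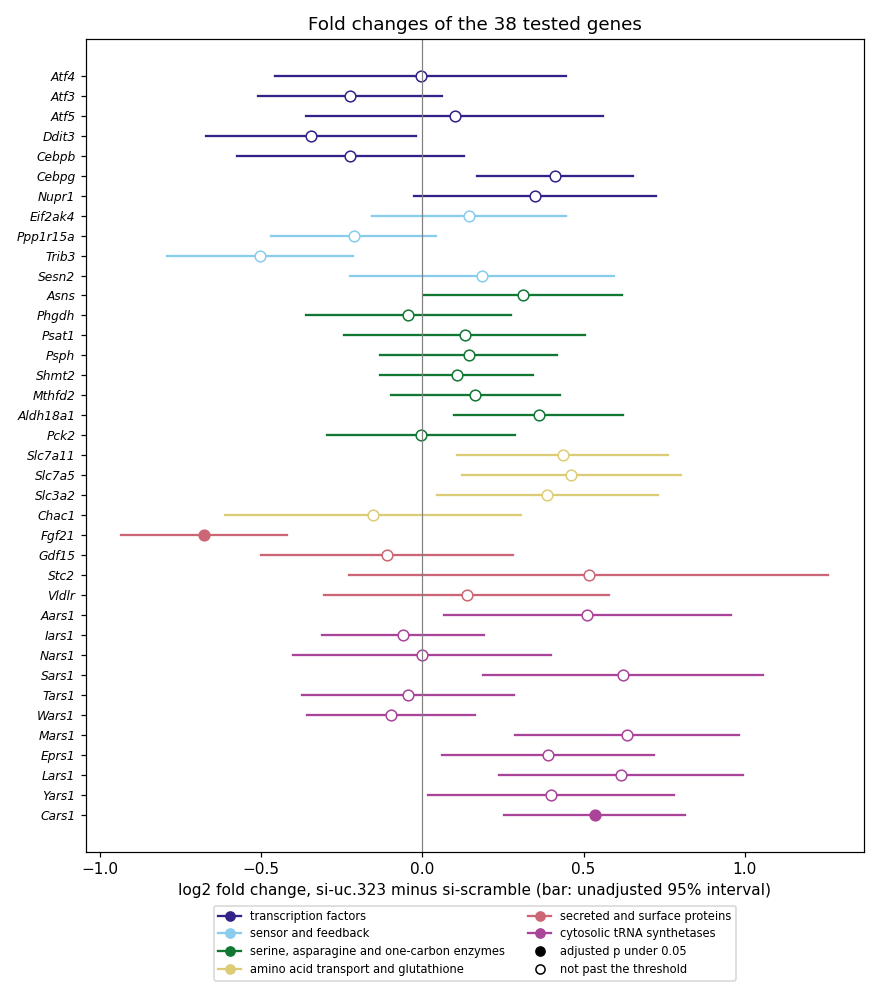
Log2 fold change of each of the 38 tested genes, si-uc.323 minus si-scramble (x axis), ordered and coloured by role, with bars for the unadjusted 95% interval of the fit over 3 and 3 arrays. Filled points passed an adjusted p of 0.05: Fgf21 at -0.68 and Cars1 at 0.53, while 36 points are open.

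Brightness differed between arrays and in part with the group. Slide 1 held the whole si-scramble group together with replicate 1 of si-uc.323, and 71.8% to 73.9% of probes were well above background on these 4 arrays. Slide 2 held only replicates 2 and 3 of si-uc.323, with 78.2% and 86.5% of probes. All 7 cardiomyocyte markers were well above background on all 6 arrays. Their summed level (in units of each array's 75th percentile) was 154 to 163 in si-scramble and 147 to 173 in si-uc.323. Tnnt2 (log2 fold change 0.01), the brightest of them, weighs most in this sum. Ryr2 (-0.46) and Tnni3 (-0.34) had separated groups with lower si-uc.323 values, and Myh7 (0.29) with higher ones. None of the cardiomyocyte markers was called, and 39.1% of all genes had separated groups. All 7 fibroblast markers were also well above background on all arrays, with sums of 123 to 133 and 125 to 157. Among them, 1 gene, Postn, was called higher, and Col3a1 (0.50) had separated groups with higher si-uc.323 values and was not called. The sum of the 5 endothelial markers was lower in si-uc.323 (5.55 to 8.59) than in si-scramble (11.0 to 12.4), as was that of the 6 leukocyte markers (3.21 to 3.41 against 4.03 to 4.15), with no endothelial or leukocyte marker called. Most of the first sum is Kdr (log2 fold change -0.76) and most of the second is Cd68 (-0.41), so the sums do not stand for all of their markers. Among the leukocyte markers Adgre1 (0.42) had separated groups in the other direction. The endothelial marker Tie1 (0.73) did too, but it was well above background on 0 si-scramble arrays and 3 si-uc.323 arrays. It entered the test only through the group where it read higher, so its direction carries no weight here. The part of these markers and of the slide in the results below was not tested, and in such bulk RNA fewer cells of a type and less RNA per cell cannot be told apart. The 6 smooth muscle and pericyte markers summed to 40.4 to 45.4 and 42.2 to 49.5. Of these, Myh11 (0.56) and Rgs5 (0.42) had separated groups with higher si-uc.323 values, and neither was called. The 3 erythroid markers summed to 3.32 to 3.88 and 2.83 to 3.71 with Hbb called lower, and the 6 Schwann cell and neuron markers to 6.84 to 7.45 and 5.93 to 7.03.

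Promoters are shown for the 2 called genes, Fgf21 and Cars1, and for the 2 that came nearest to the threshold, Mars1 and Trib3, since ATF4 acts on many of these genes through the C/EBP-ATF response element. The core TGATGNAA was searched on both strands of the RefSeq promoter table of rat assembly GRCr8, which holds 250 bases before to 50 bases after each start. Of the 40 genes, 37 were in the table and 13 of these held at least 1 match (35.1%), against 3.98% of all 33469 promoters of the same length. The genes were listed as ATF4 targets, so the higher share is a description of the list. Capitals mark the match, which in all 4 promoters lies on the opposite strand of the printed sequence. The Fgf21 promoter is at chr1:105221327-105221626, that of Cars1 at chr1:208225320-208225619, that of Trib3 at chr3:161275484-161275783 and that of Mars1 at chr7:65023704-65024003, all on the minus strand of GRCr8:
Fgf21: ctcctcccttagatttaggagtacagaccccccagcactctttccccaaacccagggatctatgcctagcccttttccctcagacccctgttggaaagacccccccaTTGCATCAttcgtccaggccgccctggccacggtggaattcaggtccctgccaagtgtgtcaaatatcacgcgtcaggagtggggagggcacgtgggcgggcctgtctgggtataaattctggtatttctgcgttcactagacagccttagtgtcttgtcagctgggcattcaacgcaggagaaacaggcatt
Cars1: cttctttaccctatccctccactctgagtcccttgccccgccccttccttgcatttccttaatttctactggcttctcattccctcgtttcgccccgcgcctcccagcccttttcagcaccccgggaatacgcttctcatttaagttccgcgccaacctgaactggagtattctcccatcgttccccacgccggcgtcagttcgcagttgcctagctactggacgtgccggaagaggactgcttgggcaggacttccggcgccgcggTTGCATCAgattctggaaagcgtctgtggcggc
Trib3: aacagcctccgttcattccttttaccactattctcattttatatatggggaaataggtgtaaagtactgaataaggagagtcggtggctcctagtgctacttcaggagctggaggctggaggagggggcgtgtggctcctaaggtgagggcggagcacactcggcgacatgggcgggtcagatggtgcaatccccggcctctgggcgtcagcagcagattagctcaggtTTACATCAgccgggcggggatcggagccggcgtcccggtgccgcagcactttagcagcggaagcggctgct
Mars1: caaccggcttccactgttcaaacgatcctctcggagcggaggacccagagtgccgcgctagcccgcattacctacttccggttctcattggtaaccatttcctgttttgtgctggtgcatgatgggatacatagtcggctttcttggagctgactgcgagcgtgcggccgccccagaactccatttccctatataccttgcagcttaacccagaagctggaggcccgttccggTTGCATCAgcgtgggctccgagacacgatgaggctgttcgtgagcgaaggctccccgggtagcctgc
Counted from the start as base 1, with negative positions before it, the match spans -143 to -136 in Fgf21, -21 to -14 in Trib3 and -17 to -10 in Mars1, and it lies after the start in Cars1, at 18 to 25. Among the synthetases 7 of 11 promoters held a match. Tars1 (promoter chr2:62114753-62115052, minus strand) and Iars1 (chr17:15193603-15193902, minus strand) are shown with 10 bases on either side of the match because they hold the same core as Mars1 and Cars1 but had log2 fold changes of -0.04 and -0.06:
Tars1: tggcgtcccgTTGCATCAgctggttagc
Iars1: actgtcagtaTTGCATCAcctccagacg
The same core therefore stands in the promoters of the gene that fell, the gene that rose and genes that read near 0 by their brightest probe. The dimmer Tars1 probe read 0.59 when each probe was fitted on its own (limma adjusted p = 0.0439). The 12 tested genes with a match had log2 fold changes from -0.68 to 0.63 with a median of -0.0026, 5 of them positive and 7 negative, and the 24 tested genes without one had a median of 0.14, with 17 positive and 7 negative.

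Values on the single arrays are given as log2 intensity relative to the array's 75th percentile, in the order of replicates 1, 2 and 3. Among the transcription factors none of 7 passed, and their median log2 fold change was -0.0045, with 3 positive and 4 negative. Atf4 mRNA, which codes for the central factor of the response, read 2.98, 3.02 and 2.76 with si-scramble and 2.63, 3.32 and 2.80 with si-uc.323. The groups overlapped throughout, with the lowest and the highest value both in si-uc.323. The log2 fold change was -0.0045 ± 0.19 (SE of the fit, n = 3 and 3 arrays; limma adjusted p = 0.991) with an unadjusted 95% interval of -0.46 to 0.45. Changes of up to about that size in either direction thus lie within the error.

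Ddit3 codes for CHOP, the factor linked to cell death under prolonged stress. It read 3.33, 3.10 and 3.23 with si-scramble and 2.98, 2.99 and 2.64 with si-uc.323, so that all si-uc.323 values lay below the others, with replicate 3 the lowest. Its difference of -0.35 ± 0.14 on the log2 scale did not pass (limma adjusted p = 0.159). Atf3, an early stress-induced repressor, read 0.80, 0.64 and 0.73 against 0.66, 0.48 and 0.36, where replicate 1 of si-uc.323 fell within the si-scramble range (-0.22 ± 0.12, limma adjusted p = 0.273). Cebpg, a bZIP partner of ATF4 on the response element, went the other way. It read -0.20, -0.23 and -0.12 with si-scramble and 0.27, 0.17 and 0.25 with si-uc.323, with the groups well separated and the si-uc.323 values close together. The log2 fold change of Cebpg, 0.41 ± 0.10, missed the threshold (limma adjusted p = 0.0615) and passed it in 4 of 13 other settings that kept the whole design or slide 1. Cebpb, Atf5 and the stress-induced chromatin protein Nupr1 read log2 fold changes of -0.22, 0.10 and 0.35 with overlapping groups, and none passed.

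**Figure D2:**
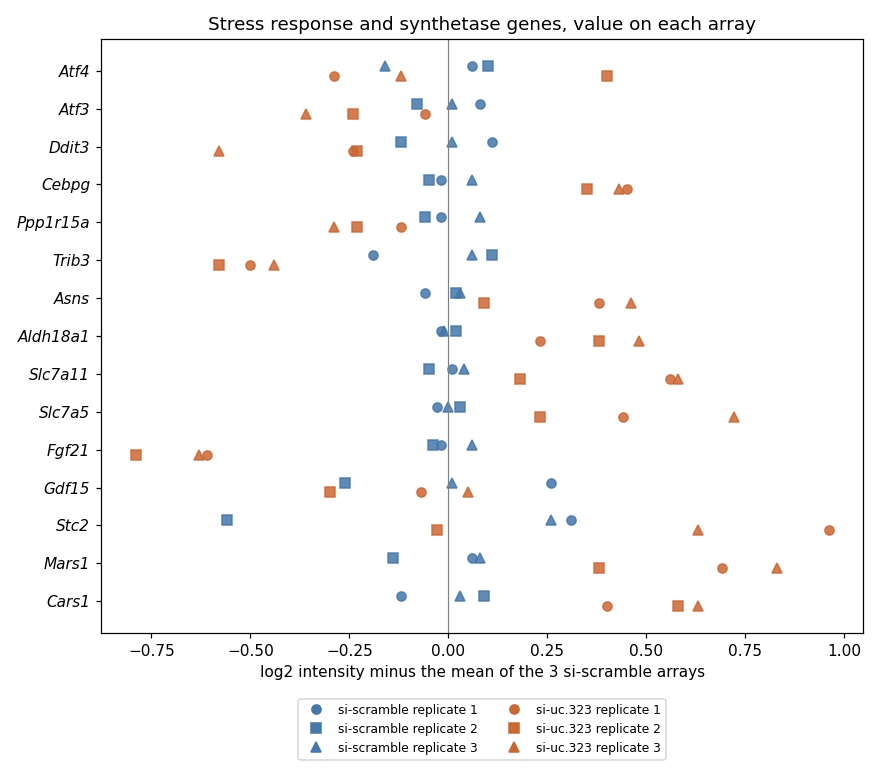
Value of 15 genes on each of the 6 arrays, as log2 intensity minus the mean of the 3 si-scramble arrays (x axis), with blue symbols for si-scramble and orange symbols for si-uc.323 and the symbol shape giving the replicate number. The orange symbols of Fgf21 lie between -0.79 and -0.60 and those of Cars1 between 0.40 and 0.63, clear of the blue ones, while those of Atf4 lie on both sides of them.

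Among the sensor and feedback genes none of 4 passed. Trib3, a pseudokinase that is induced by ATF4 and CHOP and restrains both, read -0.95, -0.65 and -0.70 with si-scramble and -1.26, -1.34 and -1.20 with si-uc.323. All si-uc.323 values were lower, and they varied less among themselves (SD 0.0703) than the si-scramble values (SD 0.158). The difference was -0.50 ± 0.12 on the log2 scale, a level 1.42-fold lower, and it missed the threshold (limma adjusted p = 0.0596), with the adjusted p between 0.017 and 0.293 in 13 other settings and under 0.05 in 7 of them. Ppp1r15a codes for GADD34, the subunit that directs a phosphatase to eIF2 and so ends the response. Its values were 1.24, 1.20 and 1.34 against 1.14, 1.03 and 0.97, also separated, with a log2 fold change of -0.21 ± 0.11 (limma adjusted p = 0.249). Eif2ak4, which codes for the kinase GCN2, and Sesn2, a leucine sensor of the MTOR pathway, read 0.14 and 0.19 and did not pass, with overlapping groups.

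The enzymes of serine, glycine, asparagine and proline synthesis and of mitochondrial folate metabolism gave no call among 8 genes, with 6 positive and 2 negative values and a median of 0.14. Asns, asparagine synthetase and the best known target of the amino acid response, read 0.68, 0.76 and 0.77 with si-scramble and 1.12, 0.83 and 1.20 with si-uc.323. Replicate 2 of si-uc.323 lay just above the si-scramble range and the other two well above it. This gave a log2 fold change of 0.31 ± 0.13 (limma adjusted p = 0.172). Aldh18a1, which makes the precursor of proline, read -1.36, -1.32 and -1.35 against -1.11, -0.96 and -0.86, separated and with little spread among the si-scramble arrays (0.36 ± 0.11, limma adjusted p = 0.0957). Shmt2, the mitochondrial serine hydroxymethyltransferase, was the third gene of this class whose groups were separated, with a log2 fold change of 0.11. The serine synthesis enzymes Phgdh, Psat1 and Psph read -0.04, 0.13 and 0.14, and Pck2, the mitochondrial phosphoenolpyruvate carboxykinase, read -0.0038, all with overlapping groups.

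Of the 4 tested genes of amino acid transport and glutathione, the 3 transporter genes had separated groups with higher si-uc.323 values, where 20.1% of all genes did, and none passed. Slc7a11, the cystine importer that feeds glutathione synthesis, read -1.96, -2.02 and -1.93 with si-scramble and -1.41, -1.79 and -1.39 with si-uc.323 (0.43 ± 0.14, limma adjusted p = 0.102). Slc7a5, the importer of large neutral amino acids, read -4.12, -4.06 and -4.09 against -3.65, -3.86 and -3.37 (0.46 ± 0.14, limma adjusted p = 0.097). In both genes replicate 2 of si-uc.323 lay nearest to the controls. Slc3a2, the heavy chain that pairs with both importers, had a log2 fold change of 0.39 with the same order of replicates, at 0.40, 0.13 and 0.63 over the si-scramble mean. Chac1, which degrades glutathione and is induced by ATF4, read -0.15, and its 3 si-uc.323 values ran from -0.56 to 0.17 against the si-scramble mean.

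Of the 4 secreted and surface proteins, Fgf21 fell. Its values were -3.60, -3.62 and -3.52 with si-scramble and -4.19, -4.37 and -4.21 with si-uc.323. The 3 si-uc.323 values all lay more than 0.5 log2 units below the lowest si-scramble value, and the spread within either group was small (SD 0.0515 and 0.101). The log2 fold change was -0.68 ± 0.11, a level 1.60-fold lower (unadjusted 95% interval -0.93 to -0.42; limma adjusted p = 0.0267), where 2.88% of all genes were called lower. On slide 1 alone, replicate 1 of si-uc.323 read 0.60 below the si-scramble mean (a log2 difference of -0.60). Blocking on the slide raised the limma adjusted p of Fgf21 to 0.21, leaving out 1 si-scramble array raised it to 0.127, 0.104 or 0.158 (replicate 1, 2 or 3), and leaving out replicate 1 of si-uc.323 raised it to 0.0544.

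Gdf15, a stress-induced cytokine that acts on appetite, read -1.78, -2.30 and -2.03 against -2.11, -2.34 and -1.99, with full overlap (-0.11 ± 0.17, limma adjusted p = 0.706; unadjusted 95% interval -0.50 to 0.28). Fgf21 and Gdf15, which are often measured side by side as markers, thus gave different readings, although the difference between the genes was not tested. Stc2, a secreted glycoprotein, read -4.97, -5.84 and -5.02 against -4.32, -5.31 and -4.65, with replicate 2 lowest in both groups (0.52 ± 0.32, limma adjusted p = 0.326). Vldlr, a lipoprotein receptor induced by ATF4, read 0.14 with overlapping groups.

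The 11 tested synthetases, which load amino acids onto tRNAs, had a median log2 fold change of 0.40, and 7 of the 11 genes had positive values. The median lay between 0.29 and 0.44 in 13 other settings. The other background filters, the other prior and the replicate block leave these fold changes as they are. Those settings could not move the median, and the slide block and slide 1 alone share 1 estimate (0.38). In all of these 7 genes (63.6% of the 11) every si-uc.323 value lay above every si-scramble value, where 20.1% of all genes were separated in that direction. For some the gap was small, as in Yars1 (-1.98 in si-uc.323 against -2.04 in si-scramble) and Eprs1 (0.84 against 0.75). The si-scramble means of these 7 genes ran from -2.1 to 1.73 and those of the other 4 from 1.39 to 2.94. The part of probe brightness was not tested. Only Cars1 passed the threshold, or 9.09% of the 11 genes, where 3.26% of all genes were called higher. The medians of the 3 si-uc.323 arrays against the si-scramble mean were 0.38, 0.27 and 0.50 for replicates 1, 2 and 3. The first of these is the only si-uc.323 array of slide 1, and with a slide block no synthetase was called.

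Cars1, which charges the cysteine tRNA, read -1.71, -1.50 and -1.56 with si-scramble and -1.19, -1.01 and -0.96 with si-uc.323, with no overlap and a like spread in both groups. This is a log2 fold change of 0.53 ± 0.12, a level 1.45-fold higher (unadjusted 95% interval 0.25 to 0.82; limma adjusted p = 0.0494). The adjusted p is at the edge of the threshold, and the call was lost with a common median shift (adjusted p = 0.0646), with the replicate block (0.0733), with a slide block (0.322) and without any 1 of the 6 arrays (0.0523 to 0.207). Mars1, the methionyl-tRNA synthetase that also loads initiator tRNA, had the highest log2 fold change of the 38 genes and did not pass. It read 0.01, -0.19 and 0.03 against 0.64, 0.33 and 0.78, again with replicate 2 nearest to the controls (0.63 ± 0.15, limma adjusted p = 0.0535). Sars1 and Lars1, for serine and leucine, followed at 0.62 ± 0.18 and 0.62 ± 0.16 (limma adjusted p = 0.0884 and 0.0669), and Aars1 (0.51), Yars1 (0.40) and the bifunctional Eprs1 (0.39) had separated groups too.

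The other 4 synthetases lay near 0 by their brightest probe: Nars1 at -0.0015, Tars1 at -0.04, Iars1 at -0.06 and Wars1 at -0.10. Their unadjusted 95% intervals all spanned 0 and ended at 0.40, 0.28, 0.19 and 0.16. Whether these genes differ from Cars1, with its interval of 0.25 to 0.82, was not tested. A single array weighed on the calls in the set and over all genes. Without si-uc.323 replicate 2, 8 of the 38 genes were called higher in place of 1 (Asns, Cebpg, Lars1, Mars1, Sars1, Slc3a2, Slc7a11 and Slc7a5). Cars1 was not among them. Over all genes 1784 were then called (15.3%), 1164 of them higher.

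For genes with several probes the reading depended on the probe. When each probe was fitted on its own, an analysis added after the data were seen, 5.89% of probes were called. Tars1, the threonyl-tRNA synthetase, read -0.04 ± 0.14 by its brightest probe and 0.59 ± 0.13 by its other probe (limma adjusted p = 0.862 and 0.0439). The dimmer Tars1 probe read -1.12, -1.01 and -1.03 with si-scramble and -0.59, -0.53 and -0.26 with si-uc.323, without overlap. Nars1, for asparagine, read -0.0015 ± 0.17 and 0.56 ± 0.14 (limma adjusted p = 0.996 and 0.0573). Mthfd2, the mitochondrial folate enzyme that marks ATF4 activity in mitochondrial stress, read 0.16 ± 0.11 by the brightest of its 3 probes and 0.77 ± 0.15 and 0.41 ± 0.17 by the others (limma adjusted p = 0.369, 0.0378 and 0.158). For Aldh18a1 (0.36 and 0.17) and Wars1 (-0.10 and 0.10) the probes differed by less. The brightest probe therefore decides whether Tars1, Nars1 and Mthfd2 count among the genes near 0. The transcripts that each probe detects were not analysed here.

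**Figure D3:**
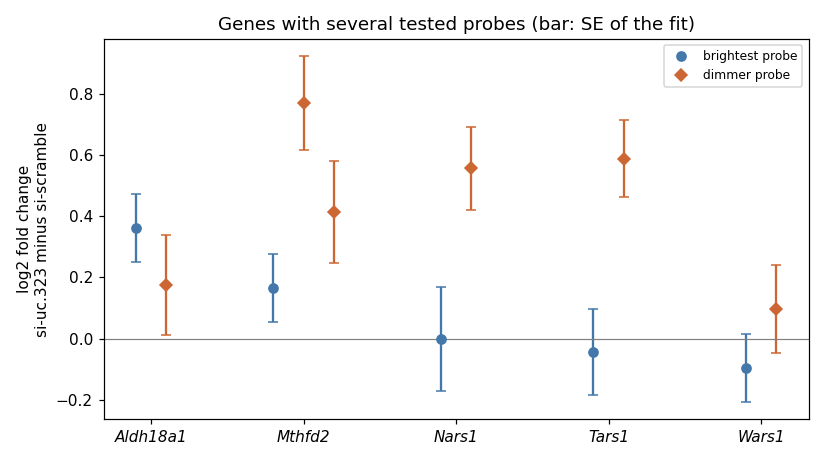
Log2 fold change of each tested probe, si-uc.323 minus si-scramble (y axis), for the 5 genes with several tested probes, with bars for the SE of the fit over 3 and 3 arrays. The brightest probes of Tars1 and Nars1 lie at -0.04 and -0.0015 and their dimmer probes at 0.59 and 0.56.

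Synthetases outside the set were examined in the same way. Of the 11 tested genes among the other cytosolic synthetases and the scaffold proteins of the multisynthetase complex none passed, with a median of 0.06. Groups were separated for 36.4% of them, 3 upward and 1 downward, near the 39.1% of all genes (20.1% upward and 19% downward). Hars1, for histidine, had the lowest adjusted p, at 0.45 ± 0.14 (limma adjusted p = 0.0978). Of the 14 tested mitochondrial synthetases, which are separate nuclear genes, none passed, and the median was -0.10 with 5 positive and 9 negative values. Their groups were separated for 35.7%, 3 upward and 2 downward, where 39.1% of all genes were separated. Nars2, for asparagine, had the lowest adjusted p of this list, at 0.46 ± 0.15 (limma adjusted p = 0.108). Cars2, the mitochondrial counterpart of Cars1, was picked out after its value was seen and read -0.52 ± 0.17 (limma adjusted p = 0.11). The cytosolic and mitochondrial cysteinyl-tRNA synthetases thus read in opposite directions, with that difference not tested.

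Upstream of ATF4, 1 of 15 tested genes among the eIF2 kinases, eIF2 and eIF2B subunits and their regulators was called (6.67%). This share was near the 6.14% of all genes called. Impact, which competes with GCN2 for its activator GCN1 and so inhibits the kinase, rose. It read 1.51, 1.58 and 1.62 with si-scramble and 2.10, 2.22 and 2.07 with si-uc.323, with the groups far apart relative to their spread (0.56 ± 0.11, limma adjusted p = 0.0351). The call of Impact was lost with a slide block (limma adjusted p = 0.24), a common median shift (0.0704) and the replicate block (0.0693), and without a background filter (0.111). Among 16 other tested targets of ATF4, 1 rose and 1 fell (12.5%, where 6.14% of all genes were called). Cth, cystathionine gamma-lyase, which releases cysteine, read -4.34, -4.57 and -4.50 against -3.19, -3.66 and -3.26 and rose by 1.10 ± 0.15 on the log2 scale (limma adjusted p = 0.021). Cbs, cystathionine beta-synthase, which makes the substrate of that enzyme, read -5.41, -5.23 and -5.51 against -6.05, -6.03 and -6.04 and fell by 0.65 ± 0.11 on the log2 scale (limma adjusted p = 0.0304). The 3 si-uc.323 values lay beyond the range of the controls in both genes. Both probes were dim, with si-scramble means of -4.47 for Cth and -5.38 for Cbs. With normexp background correction the log2 fold changes of Cth and Cbs were 0.46 and -0.39 and neither passed (limma adjusted p = 0.0831 and 0.125). Neither passed with a slide block (0.127 and 0.208) or without a background filter (0.0904 and 0.103). Cbs was also lost with the trended and robust prior (0.0634) and the replicate block (0.0546). Without si-scramble replicates 1, 2 and 3, 0, 13 and 0 of all genes were called, and Impact, Cth and Cbs were not among them.

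The other arms of the response to misfolded protein, through ATF6 and through XBP1, were examined together as a further list. Of 17 tested targets of these factors, which include chaperones, folding enzymes, degradation genes and Xbp1 and Atf6 themselves, 9 rose and none fell (52.9%, where 3.26% of all genes were called higher), with a median of 0.55. The list was chosen with earlier results of these data known, so this share describes the list and is no independent finding. The 9 genes are chaperones, co-chaperones and folding factors of the endoplasmic reticulum (Hspa5, Hsp90b1, Dnajb11, Dnajc3, Creld2, Pdia4, Pdia6, Calr and Canx). All 9 calls were lost with a slide block (limma adjusted p 0.156 to 0.245), without a background filter (0.0884 to 0.134) and without any 1 si-scramble array (0.0907 to 0.173). Those of Hspa5, Hsp90b1 and Calr were also lost with a common median shift (0.0586, 0.0529 and 0.062), and those of Hspa5 and Pdia6 with the replicate block (0.0697 and 0.0553). Dnajb11, Pdia4, Canx and Dnajc3 had the lowest adjusted p, with log2 fold changes of 0.95, 0.87, 0.74 and 0.83. Herpud1 and Hyou1, which are induced with them under misfolding, read -0.19 and -0.19 and did not pass. Whether this list differs from the genes of the set, which read in both directions, was not tested.

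**Figure D4:**
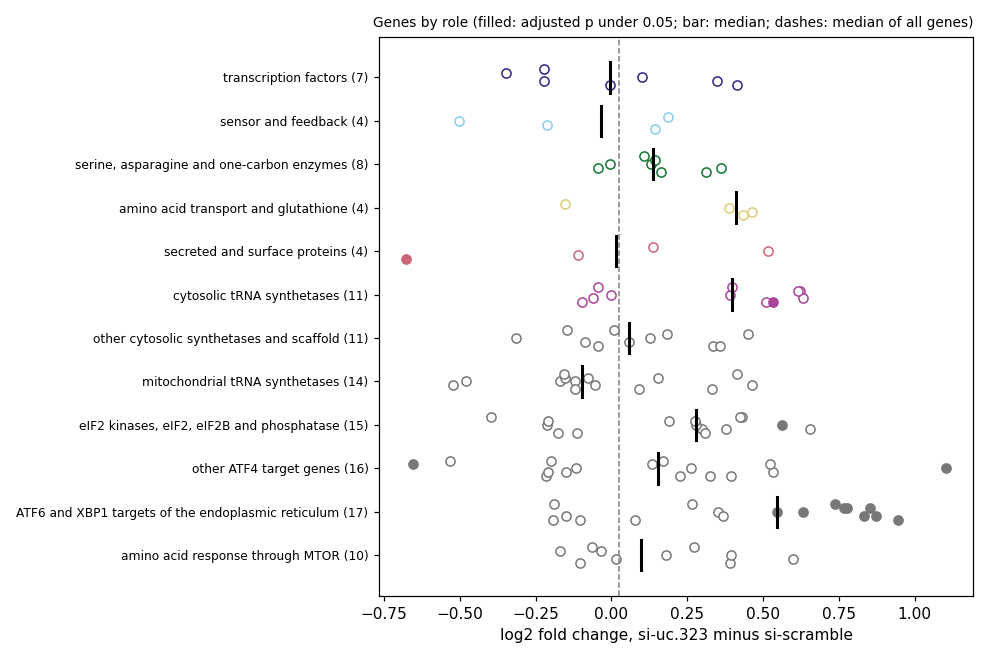
Log2 fold change of each tested gene, si-uc.323 minus si-scramble (x axis), in 6 role classes of the set (colours) and 6 lists of related genes (grey), with the number tested in brackets, filled points for an adjusted p under 0.05 and black bars for medians. The medians are 0.40 for the 11 synthetases of the set, 0.41 for the 4 transport and glutathione genes and 0.55 for the 17 genes of the endoplasmic reticulum, and the dashed line marks 0.02, the median of all genes.

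Fgf21, Trib3, Cars1 and Mars1 kept their direction in all 19 other settings. Log2 fold changes over the 13 settings other than the leaving out of arrays ran from -0.81 to -0.51 for Fgf21, from -0.61 to -0.46 for Trib3, from 0.40 to 0.53 for Cars1 and from 0.53 to 0.69 for Mars1. Some settings, such as the other prior and the replicate block, cannot change a fold change. Since the choice of these 4 genes also used the same arrays, a kept direction is no independent support.

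The number of the 38 genes called moved between settings, and so did the share of all genes called. With array weights 12 were higher and 2 lower (29.4% of all genes called), with a trended and robust prior 4 and 2 (10.1%), with cyclic loess 3 and 2 (10.2%), with normexp correction 2 and 2 (6.4%) and with signal required on all 6 arrays 2 and 1 (7.07%). Quantile scaling and the series values gave 1 higher and 2 lower each (8.52% and 8.44%), the mean over probes 1 and 1 (6.35%) and a common median shift 0 and 2 (6.76%). Where 2 genes were called lower, they were Fgf21 and Trib3. The replicate block kept Fgf21 alone (3.49%), as did leaving out replicate 3 of si-uc.323 (2.52%). No gene of the set was called with a slide block (0.0259%), on slide 1 alone (0.214%), without a background filter (0%) or without replicate 1 of si-uc.323 (1.74%) or any 1 si-scramble array (0% to 0.112%), although limma found 8 to 13 of the 38 genes at an unadjusted p under 0.05 in these.

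**Figure D5:**
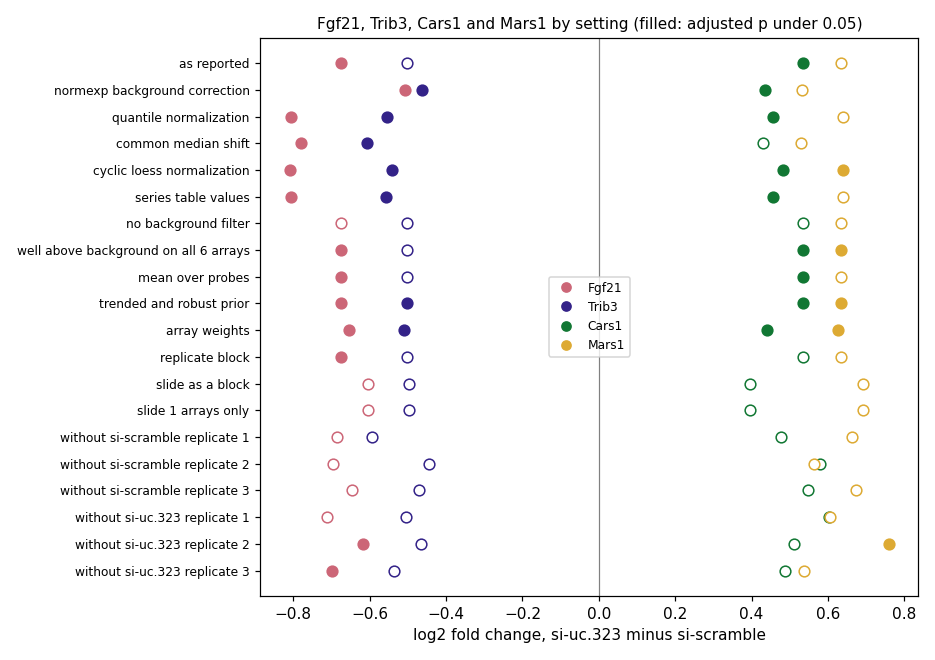
Log2 fold change of Fgf21, Trib3, Cars1 and Mars1, si-uc.323 minus si-scramble (x axis), in the reported setting and 19 others (y axis), with filled points for an adjusted p under 0.05. Fgf21 passed in 12 of the 19 others and Cars1 in 8, and no point crosses 0.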

How the data were processed

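Per the labels' protocols, total RNA of the 6 cultures was labelled with Cy3 for Agilent arrays of a single colour. Per the submitters' processing notes, the scans went through Agilent Feature Extraction 11.0.1.1. The deposited scanner files hold spot intensity that is background-subtracted and detrended within an array but not scaled between arrays, with flags of other kinds, per the file headers. Log2 values of unstated scaling, deposited for the series as a whole, have a median of 6.52 in every column and served only as an alternative. Control spots and outlier spots (322 to 594 of 42877 per array) were removed, log2 intensity was shifted by the array's 75th percentile (1182 to 1775 intensity units) and spots of a probe were averaged. RefSeq accessions (assembly GRCr8) named 18005 of 30367 probes with a single gene, 0 with several, and left 12362 unnamed. A probe stayed in if all arrays of either group read it well above background, and the brightest probe stood for its gene, which gave 19920 features. No spot was saturated. Titles gave groups and replicate numbers, and scan identifiers gave the slide.

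The test was lmFit with eBayes (limma 3.58.1, R 4.3.3) on the group alone, adjusted by Benjamini-Hochberg over all features and checked on simulated data. Litters are not stated, so p-values describe only the spread between these samples. The genes and lists were chosen with earlier results of these data known. Values on every array are given for called genes, the 2 with the lowest adjusted p of each role class, and Atf4, Ddit3, Trib3, Asns, Atf3, Fgf21 and Gdf15. Of other lists, up to 4 called genes are named, or the 1 with the lowest adjusted p. Genes outside this rule, such as Herpud1, Hyou1 and Cars2, were named after their values were seen. The 15 alternatives were normexp correction (offset 50), quantile, cyclic loess and median scaling, the series values, 2 other background filters, averaging probes, a trended, robust prior, weights per array, blocks for replicate number and for slide, slide 1 alone, leaving out each array and, added after seeing the data, every probe on its own. Figures used matplotlib 3.10.9 (Python 3.11.15).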

Additional observations from a re-analysis of the deposited data

How the results depend on the processing

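Of the 38 genes, 1 was called higher and 1 lower. The number called higher became 0 with a common median shift, without a background filter, with the replicate block, with the slide as a block and on slide 1 alone, 2 with normexp correction and with signal on all 6 arrays, 3 with cyclic loess, 4 with a trended and robust prior and 12 with array weights. The number called lower became 2 with normexp, quantile, median and cyclic loess scaling, the series values, the trended prior and array weights, and 0 without a filter, with the slide as a block and on slide 1 alone. At an unadjusted p under 0.05, limma found 8 to 18 of the 38 genes in the 13 settings that kept the whole design or slide 1, against 16 as reported. Over all genes 711 calls became 1182 with cyclic loess, 1172 with the trended prior, 3399 with array weights, 404 with the replicate block, 3 with the slide as a block, 25 on slide 1 alone and 0 without a filter (3110 genes at an unadjusted p under 0.05). Leaving out single arrays gave 0 to 1784 calls, 0 to 8 genes of the set higher and 0 to 1 lower; at 0 calls, without si-scramble replicates 1 and 3, limma found 2351 and 2102 genes at an unadjusted p under 0.05. The median of the set went from 0.14 to 0.036 with a common median shift, which moved that of all genes from 0.02 to -0.08. Atf4 changed sign with normexp (0.016), quantile (0.057), cyclic loess (0.056) and the series values (0.057), and Stc2 with normexp (-0.0055). Without single arrays Atf4 read -0.21 to 0.14 and Gdf15 -0.24 to 0.019. The causes were not tested. Same-numbered arrays deviated together for numbers 1 and 2 (correlations 0.205 and 0.39) but not 3 (-0.116), and replicate 1 of si-uc.323 correlated best with si-scramble 3 (0.477), so the replicate block pairs samples by number only. Fold changes of about 0.5 with these SEs sit at the threshold, so the 6 arrays limit what could be called.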

Other observations

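Among the genes by which amino acids act on the kinase MTOR, none of the 10 tested genes passed (median log2 fold change 0.10, 6 positive and 4 negative), and 3 (30%) had separated groups, all with higher si-uc.323 values, where 39.1% of all genes were separated in either direction and 20.1% upward. Rheb, the small GTPase that activates MTOR on the lysosome, had the lowest adjusted p. It read 2.22, 2.03 and 2.11 with si-scramble and 2.59, 2.38 and 2.56 with si-uc.323, without overlap (0.39 ± 0.12, limma adjusted p = 0.0897).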
